A study of Mus musculus with 8 samples.

Results

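The transcripts of 10 genes were followed here: both gamma-tubulin genes (Tubg1 and Tubg2), the gamma-tubulin complex proteins GCP2 to GCP6 (Tubgcp2 to Tubgcp6), the adaptor Nedd1, and the pole scaffolds Pcnt and Cep192. They were chosen by gene symbol from a table of 25574 genes, all 10 were found, and all 10 were among the 14292 genes with a mean FPKM (fragments per kilobase of transcript, scaled to the size of the library) above 0.1 in at least 1 dataset. The question was how these messages divide between polysomes and the lighter part of a sucrose gradient while the first meiotic spindle is assembled. The 8 libraries are 4 polysomal (P) and 4 non-polysomal (NP) libraries of CD1 mouse oocytes at nuclear envelope breakdown (NEBD), prepared by a scarce-sample polysome profiling protocol that uses small gradients.

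The oocytes of both datasets came from 8 weeks old females stimulated with 5 IU of PMSG for 46 h, resumed meiosis during 180 min of culture, and were treated with 0.1 mg/mL cycloheximide for 10 min to hold ribosomes on mRNA. Each profile held 200 pooled oocytes, so a library describes a pool and no single cell. NP and P are parts of the same kind of gradient and neither is an untreated control. NP pooled the fractions with ribosomal subunits, single ribosomes and stored mRNA particles, and P pooled the heavier fractions. The top fraction of the gradient was left out of both. The paper could not exclude that heavy stored particles sediment with polysomes. P against NP is therefore not a full split of each message into translated and not translated. The RNA was depleted of ribosomal RNA and amplified as cDNA before sequencing, and the values are therefore relative amounts within a library, which cannot tell a message that left one pool from a change in the rest of that pool.

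Gamma-tubulin nucleates microtubules as part of a ring complex. GCP2 and GCP3 with gamma-tubulin form the small complex that is the repeating unit of the ring, GCP4, GCP5 and GCP6 are needed to build the full ring, and NEDD1 targets it to spindles and poles. Mouse oocytes lack centrioles, and their poles are built from microtubule-organising centres that contain pericentrin (Pcnt), CEP192 and gamma-tubulin.

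Each oocyte marker examined was abundant. All 11 (among them Zp3, Gdf9 and Bmp15) had a mean above 1 FPKM. The summed level of 11 granulosa and cumulus markers ranged from 15.3 to 95.0 FPKM in NP and from 2.38 to 64.0 FPKM in P, and 2 of them (Cyp19a1 and Nr5a2) had a mean above 1 FPKM, while 4 were at 0 in every library. The 4 blood markers found were at 0 in every library. The number used to scale a library, read off the spacing of its low FPKM values, ranged from 1299382 to 7594642 for NP and from 2677944 to 4699332 for P. The reads recovered from FPKM values summed to more than this number in every library, as with 2857218 against 1299382 in NP replicate 2. It is therefore not a depth in recovered reads. The part of these numbers or of the marker levels in the results was not tested.

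The gamma-tubulin genes lie 29487 bases apart on chromosome 11 and are close copies, so their sequences are shown where they can be told apart. Their coding sequences are both 1353 bases long and differed at 91 positions (93.3% identical bases). The 60 coding bases with the most differences (15, in capitals, coding bases 1159 to 1218 counted from the start codon, exon 11, plus strand, GRCm38) read as follows for Tubg1 at chr11:101126032-101126091 and Tubg2 at chr11:101161405-101161464.
Tubg1: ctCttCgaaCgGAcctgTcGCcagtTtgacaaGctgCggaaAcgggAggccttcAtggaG
Tubg2: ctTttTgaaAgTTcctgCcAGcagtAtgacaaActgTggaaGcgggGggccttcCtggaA
The longest identical run was 164 bases (coding bases 640 to 803, across exons 7 and 8), and 15 of 1653 windows of 150 bases in the Tubg1 transcript (0.907%) were also found in Tubg2, or 314 when up to 2 mismatches were allowed. The sources used here do not state how reads matching both genes were counted, so the split between the 2 genes is uncertain to that extent.

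Tubg2 was the more abundant gamma-tubulin message in 7 of 8 libraries. Tubg1 (chr11:101119938-101126419) was at 17.1, 45.5, 8.97 and 0.697 FPKM in NP replicates 1 to 4 and at 7.89, 11.7, 6.95 and 1.98 FPKM in P replicates 1 to 4. The NP libraries enclosed all 4 P libraries, with NP replicate 2 highest and NP replicate 4 lowest, the latter resting on 12 recovered reads. The mean level was 18.1 ± 19.5 FPKM in NP and 7.13 ± 4.00 FPKM in P (SD, n = 4 each). The log2 fold change of P over NP was −0.60 (SE 1.01, limma adjusted p = 0.800) on the log2(FPKM + 1) scale that is used for every fold change here, and it turned to 0.35 after centring each library on its median, to 0.03 after quantile normalization and to 0.09 without NP replicate 2.

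Tubg2 (chr11:101155907-101161787) was at 92.7, 81.2, 26.4 and 63.7 FPKM in NP and at 126, 43.4, 3.08 and 28.5 FPKM in P. P replicate 1 was the highest of the 8 libraries and P replicate 3 the lowest, so that P enclosed NP and spanned a 40.8-fold range against 3.51-fold in NP. The means were 66.0 ± 29.0 FPKM in NP and 50.1 ± 53.0 FPKM in P (SD, n = 4 each), and the log2 fold change was −1.08 (SE 0.91, limma adjusted p = 0.661), with values from −1.80 to −0.15 when single libraries were left out. Tubg2 was 5.41, 1.78, 2.94 and 91.3 times as abundant as Tubg1 in NP replicates 1 to 4 and 15.9, 3.71, 0.443 and 14.4 times in P replicates 1 to 4. P replicate 3 was the only library with more Tubg1. The log2 ratio of Tubg2 to Tubg1 was 2.47 ± 1.96 in NP and 1.996 ± 2.15 in P (SD, n = 4 each), and the difference of −0.48 was within the spread between libraries (exact permutation test, 2-sided, p = 0.771, and 0.771 after adjustment over the 3 pairs compared).

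**Figure D1:**
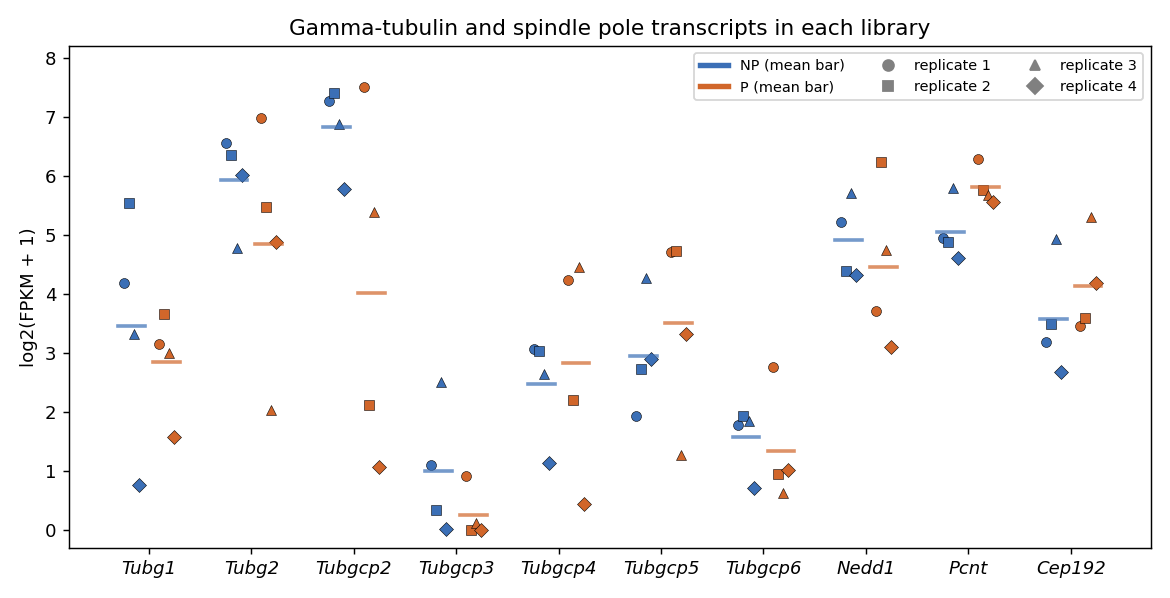
Level of each of the 10 transcripts as log2(FPKM + 1) (y axis) for the NP (blue) and P (orange) libraries, with symbols for replicates 1 to 4 and a bar at the mean. Tubgcp2 has 4 high NP libraries and P libraries from 1.09 to 180 FPKM, whereas the 4 Pcnt libraries of P lie between 45.9 and 76.5 FPKM.

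Tubgcp2 and Tubgcp3 encode the partners of the small complex, and in NP their messages stood at or near opposite ends of the group. In P this did not hold throughout. Counted from the most abundant message of the group, Tubgcp2 ranked 1, 8, 2 and 7 in P replicates 1 to 4. Tubgcp3 was the lowest in each of these libraries. Tubgcp2 (chr7:139995955-140036350, minus strand) was at 153, 168, 117 and 54.0 FPKM in NP and at 180, 3.34, 40.8 and 1.09 FPKM in P. All 4 NP libraries were above 50 FPKM, while P held both the highest and the lowest library of the 8, and P replicate 4 rested on 9 recovered reads against 1265 in NP replicate 4. The mean was 123 ± 50.6 FPKM in NP and 56.3 ± 84.5 FPKM in P (SD, n = 4 each), and P replicate 1 alone made up 79.9% of the P sum.

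Tubgcp2 had the largest log2 fold change of the 10, −2.82 (SE 1.14), which did not pass the adjustment over all genes (limma adjusted p = 0.453). It was 1 of 10 with an unadjusted p below 0.05, as had 9.95% of all genes tested. The direction was the same under every scaling and with every single library left out (−3.98 to −1.83). Without P replicate 1 all 4 NP libraries lay above the 3 remaining P libraries, as they did for 11.2% of all genes tested, and the ratio of the P to the NP mean went from 0.458 to 0.123. The position of Tubgcp2 within each library, as a percentile among genes above 0, was 91.5 ± 5.09 in NP and 59.6 ± 34.1 in P (SD, n = 4 each, exact permutation test, 2-sided, p = 0.143).

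Tubgcp3 (chr8:12614277-12672248, minus strand) was at 1.13, 0.269, 4.71 and 0.0154 FPKM in NP and at 0.894, 0, 0.0788 and 0 FPKM in P. These values rest on 31, 3, 294 and 1 recovered reads in NP and on 36, 0, 3 and 0 in P, and a count of 0 allows up to 0.109 FPKM in P replicate 2 and 0.131 FPKM in P replicate 4 (3 reads, counting error only). Per length as the authors used it, Tubgcp3 had the lowest level of the 10 in 7 of 8 libraries, the exception being NP replicate 3. The means were 1.53 ± 2.17 FPKM in NP and 0.243 ± 0.436 FPKM in P (SD, n = 4 each), and the log2 fold change of −0.74 (SE 0.53, limma adjusted p = 0.640) was −1.79 with a pseudocount of 0.1, −2.63 with voom on recovered reads and 0.22 after median centring.

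Per length as the authors used it, the mean level of Tubgcp2 was 80.2 times that of Tubgcp3 in NP and 232 times in P, or 37.0 and 107 times per length of the coding transcript. These ratios rest on few libraries with Tubgcp3 reads, and they were 264 in NP without replicate 3 and 575 in P without replicate 1. Tubgcp2 was the higher of the 2 in 8 of 8 libraries. The log2 ratio of Tubgcp3 to Tubgcp2, with 1 FPKM added to each, was −5.84 ± 1.12 in NP and −3.76 ± 2.60 in P (SD, n = 4 each). The difference of 2.08 was not larger than the spread between libraries (exact permutation test, 2-sided, p = 0.229, adjusted p = 0.686), and in P replicates 2 and 4 the ratio is set by the added 1 FPKM, since Tubgcp3 was at 0 there.

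**Figure D2:**
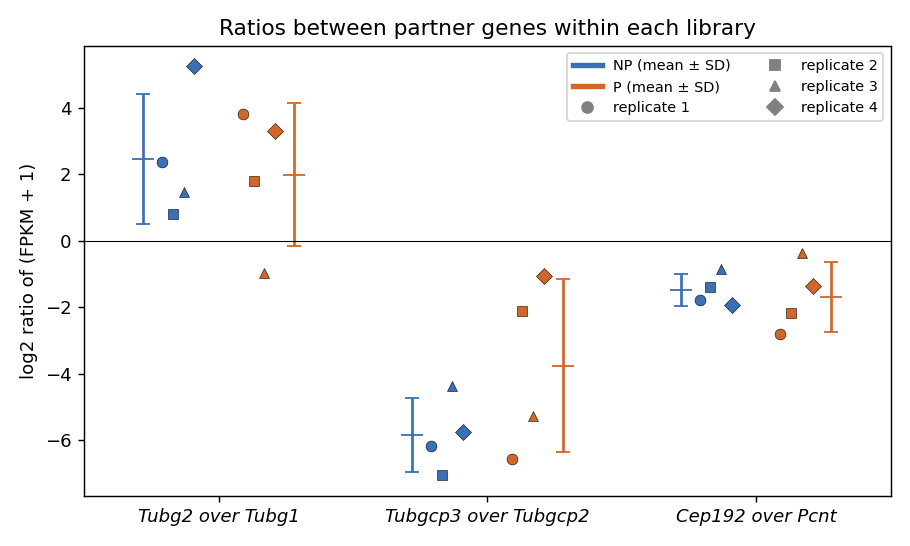
Log2 ratio of FPKM + 1 (y axis) between partner genes within each library, for NP (blue) and P (orange), with symbols for replicates 1 to 4 and bars for mean ± SD. Tubgcp3 lies below Tubgcp2 and Cep192 below Pcnt in 8 of 8 libraries, and Tubg2 lies above Tubg1 in 7 of 8.

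GCP4, GCP5 and GCP6 complete the ring. Per length as the authors used it, their messages had means between those of Tubgcp2 and Tubgcp3 in both datasets. Per length of the coding transcript, however, the NP mean of Tubgcp3 (3.46 FPKM) was above that of Tubgcp6 (2.21 FPKM). As deposited, Tubgcp5 was above Tubgcp2 in P replicates 2 and 4, and Tubgcp4 was above Tubgcp2 in P replicate 2. In NP replicate 3, Tubgcp3 was above Tubgcp6. Tubgcp4 (chr2:121170654-121198770) was at 7.35, 7.15, 5.24 and 1.21 FPKM in NP and at 17.7, 3.60, 20.9 and 0.356 FPKM in P. P replicates 1 and 3 were above all NP libraries and P replicate 4 below all of them. Its mean of 10.6 ± 10.2 FPKM in P against 5.24 ± 2.85 FPKM in NP (SD, n = 4 each) made it the only 1 of the 10 with a mean over 2-fold higher in P (16.9% of all genes tested), but the log2 fold change was 0.36 (SE 1.03, limma adjusted p = 0.888) and was below 0 when NP replicate 4, P replicate 1 or P replicate 3 was left out (lowest −0.18). The genomic span of Tubgcp4 overlaps Trp53bp1 and Zscan29 on the other strand, that of Tubgcp6 overlaps Selenoo, that of Pcnt overlaps 1700094J05Rik and that of Nedd1 overlaps Gm49783, so reads of the overlapping stretches cannot be assigned with certainty.

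Tubgcp5 (chr7:55794148-55831447) was at 2.81, 5.64, 18.2 and 6.40 FPKM in NP and at 25.2, 25.3, 1.41 and 8.93 FPKM in P. P replicates 1 and 2 were the highest of the 8 libraries and P replicate 3 the lowest. The log2 fold change was 0.55 (SE 0.94, limma adjusted p = 0.805). Tubgcp6 (chr15:89098357-89123087, minus strand) was at 2.44, 2.80, 2.60 and 0.645 FPKM in NP and at 5.80, 0.940, 0.537 and 1.03 FPKM in P. Its NP libraries were even but for replicate 4, and P replicate 1 stood apart from the other P libraries. With means of 2.12 ± 0.996 FPKM in NP and 2.08 ± 2.49 FPKM in P (SD, n = 4 each), the log2 fold change was −0.23 (SE 0.76, limma adjusted p = 0.903), or 0.73 after median centring and 0.71 after quantile normalization.

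Among the messages for GCP2 to GCP6, Tubgcp2 made up 91.8%, 91.4%, 79.2% and 86.7% of the summed FPKM in NP replicates 1 to 4. The share in P replicates 1 to 4 was 78.4%, 10.0%, 64.1% and 9.55%. The lowest NP share lay just above the highest P share, and the values are given without a test. The sum of Tubgcp4, Tubgcp5 and Tubgcp6 was 15.6 ± 7.56 FPKM in NP and 27.9 ± 16.1 FPKM in P (SD, n = 4 each), with overlapping libraries.

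Nedd1 (chr10:92684746-92722420, minus strand), the adaptor that recruits the ring, was at 36.2, 20.03, 51.4 and 19.0 FPKM in NP and at 12.04, 74.6, 25.7 and 7.61 FPKM in P. P replicate 2 was the highest of the 8 and P replicates 1 and 4 the lowest, so P enclosed NP. The means of 31.6 ± 15.3 FPKM in NP and 29.99 ± 30.7 FPKM in P (SD, n = 4 each) had a ratio of P to NP of 0.948, but P replicate 2 made up 62.2% of the P sum and the ratio was 0.478 without it. The log2 fold change was −0.46 (SE 0.77, limma adjusted p = 0.798), ranged from −1.06 to −0.016 with single libraries left out and turned to 0.49 after median centring.

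Pcnt (chr10:76351254-76442912, minus strand), which encodes the scaffold pericentrin, was at 29.98, 28.4, 54.3 and 23.3 FPKM in NP and at 76.5, 52.9, 50.2 and 45.9 FPKM in P. P was above NP in 13 of 16 pairs of libraries, and only NP replicate 3 reached into the range of P. The means were 34.0 ± 13.8 FPKM in NP and 56.4 ± 13.7 FPKM in P (SD, n = 4 each). The log2 fold change was 0.76 (SE 0.57, limma adjusted p = 0.644), and was between 0.60 and 1.003 with single libraries left out and 1.03 after quantile normalization. Without NP replicate 3 all P libraries lay above the NP libraries, as they did for 1.07% of all genes tested. After median centring they also did, as for 12.1% of all genes. In P the coefficient of variation of Pcnt was 24.4%, and 2.75% of the 5157 genes with a mean above 10 FPKM in P had a lower one (median 80.7%). This was the lowest of the values computed for the members. In NP that of Pcnt was 40.7%, and 25.7% of 5753 genes had a lower one (median 56.7%). Pcnt was the highest of the 10 in P replicates 3 and 4.

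Cep192 (chr18:67800107-67885168), the scaffold that recruits pole kinases and pericentriolar material, was at 8.05, 10.3, 29.6 and 5.37 FPKM in NP and at 9.99, 11.1, 38.4 and 17.2 FPKM in P. The third replicate was the highest in both datasets and the ranges overlapped. With means of 13.3 ± 11.02 FPKM in NP and 19.2 ± 13.2 FPKM in P (SD, n = 4 each), the log2 fold change was 0.56 (SE 0.77, limma adjusted p = 0.762) and ranged from 0.18 to 1.02 with single libraries left out. The ratio of the P to the NP mean was 1.44, but 0.958 without P replicate 3 and 2.43 without NP replicate 3. Pcnt was more abundant than Cep192 in 8 of 8 libraries, and the log2 ratio of Cep192 to Pcnt was −1.49 ± 0.48 in NP and −1.68 ± 1.05 in P (SD, n = 4 each, exact permutation test of the difference, 2-sided, p = 0.771, adjusted p = 0.771).

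**Figure D3:**
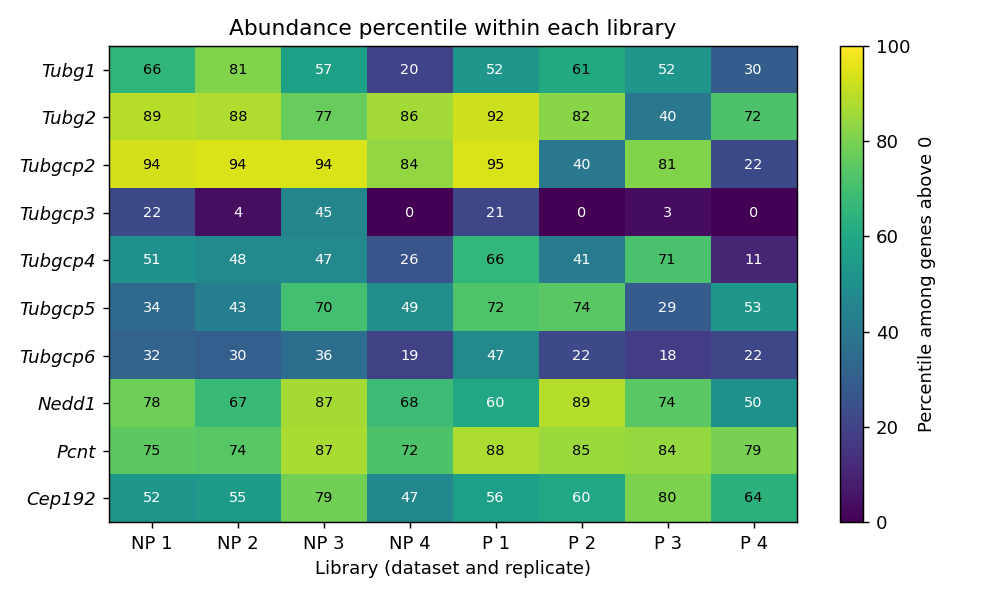
Percentile of each of the 10 transcripts (rows) among the genes above 0 FPKM in the same library (columns, NP 1 to 4 and P 1 to 4), with the colour scale from 0 to 100. Pcnt lies between the percentiles 79.3 and 87.8 in P, and Tubgcp2 between 83.9 and 94.5 in NP but from 22.3 to 94.8 in P.

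None of the 10 was called between P and NP. At a limma adjusted p below 0.1 there were 0 of 10 calls (0.021% of all genes tested, 3 genes), with 1 of 10 at an unadjusted p below 0.05, and voom on recovered reads called 0 of 10 (1.47% of the 12892 genes it tested). The libraries of P and NP overlapped for 10 of 10, whereas they did not overlap for 6.28% of all genes tested (NP above P for 5.92% and P above NP for 0.357%). The mean was over 2-fold higher in NP for 3 of 10 (Tubg1, Tubgcp2 and Tubgcp3) against 40.6% of all genes. The median log2 fold change of the 10 was −0.35, beside −0.39 for all genes tested, and the latter moved to −0.02 with quantile normalization and to 0.57 with median centring, which adds 0.96 to every fold change, so that signs close to 0 depend on the scaling. In simulated data of the same size, changes in both directions were given only to genes with a mean above 10 FPKM. Each size of change was given to 100 genes. The simulated log2 values were drawn from a normal spread and could fall below 0, which measured ones cannot, so the rates are approximate. A log2 change of 4 was called for 54% of changed genes and one of 2 for 13%, while 7 unchanged genes were called. Tubgcp3, Tubgcp4 and Tubgcp6 had lower means, so these rates do not cover them. The change measured for Tubgcp2 lay between these sizes and those of the other 9 below both. Replicates of a dataset are independent pools of oocytes, per the study's methods, but NP and P were pooled from the same profiles. The limma p-values rest on a spread between libraries that is moderated towards the trend over all genes. The exact tests use only the values compared.

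**Figure D4:**
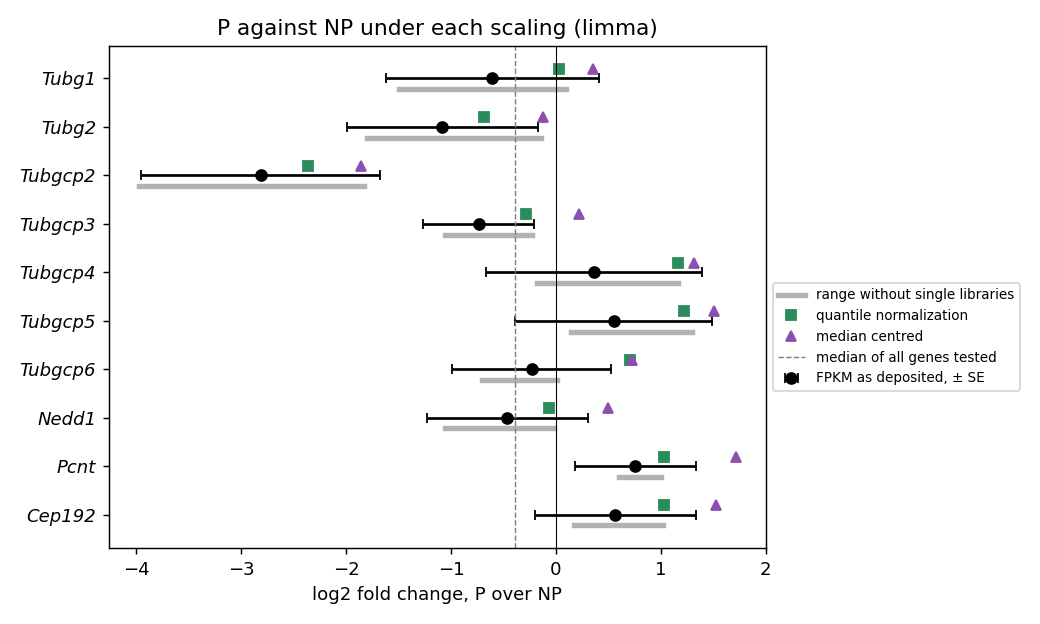
Log2 fold change of P over NP (x axis) for each of the 10 transcripts (y axis), with the limma estimate ± SE in black, the range with single libraries left out in grey, and the values after quantile normalization (green) and median centring (purple, a shift of 0.96 for every gene). Tubgcp2 and Tubg2 lie below 0 and Pcnt, Cep192 and Tubgcp5 above 0 in all of these, while the sign of Tubg1, Tubgcp3, Tubgcp4, Tubgcp6 and Nedd1 depends on the scaling or on single libraries.

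The order of mean levels, per length as the authors used it, was Tubgcp2, Tubg2, Pcnt, Nedd1, Tubg1, Cep192, Tubgcp5, Tubgcp4, Tubgcp6 and Tubgcp3 in NP. In P it was Pcnt, Tubgcp2, Tubg2, Nedd1, Cep192, Tubgcp5, Tubgcp4, Tubg1, Tubgcp6 and Tubgcp3. Most neighbours in these orders changed places in at least 1 library. The exceptions, in the same order in 4 of 4 libraries, were Tubgcp4 above Tubgcp6 in NP, and Tubg1 above Tubgcp6 and Tubgcp6 above Tubgcp3 in P. Some mean orders changed per length of the coding transcript. In NP, Tubgcp4 (10.5 FPKM) was then above Tubgcp5 (8.82 FPKM), and Tubgcp3 (3.46 FPKM) above Tubgcp6 (2.21 FPKM). In P, Tubgcp2 (58.7 FPKM) was above Pcnt (57.6 FPKM), and Tubgcp4 (21.2 FPKM) above Cep192 (19.2 FPKM) and Tubgcp5 (16.2 FPKM). Of the 10 transcripts, 9 were above 0.1 FPKM in all 8 libraries (all but Tubgcp3) and 6 were above 1 FPKM in all 8.

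The last bases of the transcripts are shown because cytoplasmic polyadenylation of maternal mRNA depends on elements near the 3′ end. Principal GENCODE transcripts were searched, on the transcript strand only, for TTTTAT or TTTTAAT in the last 100 bases and for AATAAA or ATTAAA in the last 50. Of the 9 members with enough bases after the stop codon (all but Tubgcp2), 2 held TTTTAT or TTTTAAT, beside 19.4% of 10988 genes, and 8 held AATAAA or ATTAAA, beside 79.1%. The 2 were Pcnt and Tubgcp3, and a share of 2 in 9 is near that of all genes. The sites below are in GRCm38 on the transcript strand, with matches in capitals. They are Pcnt at chr10:76351276-76351305 (minus), Tubgcp3 at chr8:12614300-12614329 (minus), Tubg1 at chr11:101126388-101126417 (plus), Tubg2 at chr11:101161757-101161786 (plus) and Nedd1 at chr10:92684748-92684777 (minus).
Pcnt: ttctTTTTATtggcaaaacaAATAAAacta
Tubgcp3: TTTTATgttgcataagtgaaaacttagaga
Tubg1: ttatctttAATAAAgcactggatgtaaacc
Tubg2: ttctAATAAATAAAgcgtgatgatgcattg
Nedd1: ctgagtacAATAAAttttcacattcaaaat
In Pcnt the start of TTTTAT lies 16 bases before that of AATAAA. In Tubgcp3 it lies 30 bases before ATTAAA, which is outside the bases shown. Each match is a description of letters and no measurement of polyadenylation.

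Other genes linked to spindle poles, centrosomes or centrioles were read from 5 lists of 47 genes. Of these, 45 were found and tested (Cep131 and Ccp110 were not matched by symbol). The lists include centriole core genes, although mouse oocytes lack centrioles. None was called at a limma adjusted p below 0.1, 1 had an unadjusted p below 0.05, and voom on recovered reads called 0. The libraries did not overlap for 1 of 45 (2.22%, beside 6.28% of all genes tested). That gene was Odf2, which encodes a scaffold protein of the centrosome: it was at 13.7, 16.3, 22.1 and 10.2 FPKM in NP and at 3.52, 8.05, 4.92 and 0.301 FPKM in P. All NP libraries lay above all P libraries, and the log2 fold change was −1.93 (SE 0.84, limma adjusted p = 0.479).

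The median log2 fold change was −0.35 for the small ring components and recruiters, −0.17 for augmin, which branches microtubules from existing ones, −0.15 for other pole scaffolds, −0.03 for kinases and assembly factors and −0.15 for centriole core genes. The most abundant gene of each list had overlapping libraries. Mzt2, a small ring subunit, was at 50.9 ± 39.4 FPKM in NP and 42.2 ± 50.6 FPKM in P. Haus4 of augmin was at 281 ± 173 FPKM in NP and 444 ± 267 FPKM in P. Of the kinases and scaffolds, Plk1 was at 413 ± 225 and 401 ± 157 FPKM and Nin at 38.0 ± 36.5 and 29.7 ± 22.7 FPKM in NP and P. Poc1a, a centriole protein gene, was at 206 ± 151 FPKM in NP and 190 ± 191 FPKM in P (SD, n = 4 for each value).

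**Figure D5:**
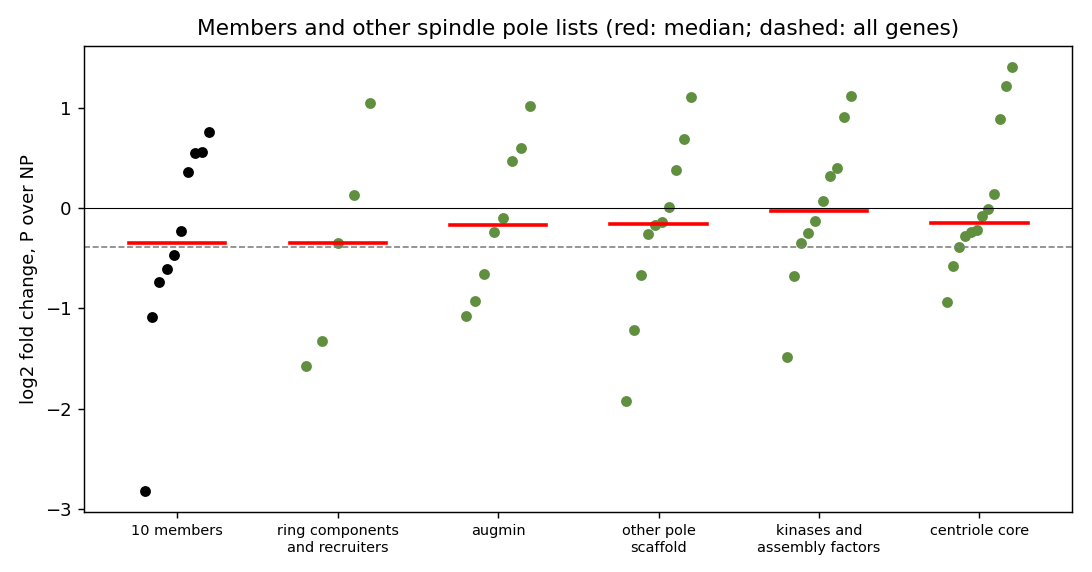
Log2 fold change of P over NP (y axis) for the 10 transcripts (black) and the genes of the 5 lists (green), with the median of each in red and the median of all genes tested as a dashed line. The medians of the lists lie between −0.35 and −0.03, and Tubgcp2 at −2.82 is the lowest point.

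Genes whose level across the 8 libraries was most like that of Tubg1 were Drg1, Rbm42 and Taf12, with Pearson r of log2(FPKM + 1) of 0.936, 0.929 and 0.927 among 5639 genes with a mean above 10 FPKM. For Pcnt they were Cnot1, Cltc and Srsf1, with r of 0.941, 0.907 and 0.903. Cltc, the clathrin heavy chain, is 1 of the listed assembly factors. The points share libraries, depth and the NP to P contrast, and the values describe only a likeness among many genes searched. Across the 10 transcripts, Spearman's rho between log2 fold change and the length recovered from the FPKM steps was 0.636, beside 0.133 over 10396 genes, which describes 10 genes that are not independent replicates.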

How the data were processed

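Libraries were grouped by their titles as NP or P, replicates 1 to 4. After trimming (Trim Galore 0.4.1) and alignment to GRCm38 (HISAT2 2.0.5), the authors deposited FPKM values per gene and library on a linear scale. Other deposited tables hold the authors' dataset means and ratios and their DESeq2 comparison, and were not used. Read numbers were recovered here from the spacing of FPKM values for 13583 genes (87.2% of those above 0 in any library), with 96.0% of values above 0 whole within a tolerance of 0.01. The sources do not state whether 1 step is a read or a fragment. Floors cover counting error only, since the cDNA was amplified and carried no molecular identifiers.

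P and NP were tested by limma 3.58.1 (R 4.3.3, lmFit and trended eBayes, 2-sided) on log2(FPKM + 1) for 14292 genes with Benjamini-Hochberg adjustment over all of them and a threshold of 0.1. The pseudocount understates changes of low genes. Exact permutation tests served for ratios and percentiles within a library (Python 3.11.15, numpy 2.4.6). They ran over the 70 assignments of all libraries, whose smallest 2-sided p is 0.0286. Fewer assignments exist where a library was left out. Spearman's rho was computed with scipy 1.17.1. Scripts were tested on simulated data. The members and lists were chosen with earlier results of these data known. Named beyond the members were, per list, up to 2 genes per direction with the largest fold change among those without overlap and with a mean above 10 FPKM in the higher dataset, the most abundant gene, and the 3 genes most correlated with Tubg1 and with Pcnt. Positions and sequences come from GENCODE and GRCm38. Alternatives were a pseudocount of 0.1, other filters, median centring, quantile normalization, a replicate block, leaving out single libraries and, chosen after seeing the data, voom on recovered reads and levels per coding transcript length.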

Additional observations from a re-analysis of the deposited data

Results flagged for a closer look

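In 3 of the 26 groups of 4 libraries tested, 1 library stood apart from the other 3 by Dixon's test, where chance flags about 1 in 20. P replicate 1 was the highest for Tubgcp3 in P at 0.894 FPKM and for Tubgcp6 in P at 5.80 FPKM. NP replicate 4 was the lowest for Tubgcp6 in NP at 0.645 FPKM.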

How the results depend on the processing

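No member was called under any of the alternatives run. The number whose libraries did not overlap moved from 0 to 1 after median centring (Pcnt, beside 12.1% of all genes with P above NP) and ranged from 0 to 1 with single libraries left out (Pcnt without NP replicate 3, beside 1.07% of all genes, and Tubgcp2 without P replicate 1, beside 11.2%). The fold change changed sign for Tubg1 (0.35 median centred, 0.032 quantile normalized, 0.090 with voom), Tubgcp3 (0.22 median centred), Tubgcp6 (0.73 median centred, 0.71 quantile normalized) and Nedd1 (0.49 median centred), and the median of all genes moved from −0.39 to 0.57 and −0.02 under these scalings and to −0.91 with voom. With single libraries left out, fold changes ranged from −1.50 to 0.092 for Tubg1, −0.18 to 1.16 for Tubgcp4 and −0.70 to 0.012 for Tubgcp6. The difference in log2 ratio ranged from −1.09 to 0.51 for Tubg2 over Tubg1, from 1.18 to 3.02 for Tubgcp3 over Tubgcp2 and from −0.63 to 0.19 for Cep192 over Pcnt. The percentile difference was 1.75 for Tubg1 and 8.86 for Tubgcp6 among all genes tested, and ranged from −19.0 to 1.35 for Tubg1, from −3.33 to 16.8 for Tubgcp4 and from −8.78 to 0.952 for Tubgcp6 with single libraries left out. That of Tubgcp2 was −32.0 (exact permutation p = 0.143), and −43.7 without P replicate 1, the P library where its percentile was highest. With that library out, all NP libraries lay above the remaining P libraries. The exact permutation p was then at its smallest possible value (0.0286, unadjusted) and adds no weight. Of 318 values recomputed, 24 changed sign. For 4 of them the cause is the construction of median centring, which adds 0.96 to every fold change, and for the other 20 it was not tested. Over all genes, 3 genes were called on FPKM as deposited, all lower in P, 0 after either scaling or without a filter, 5 with a pseudocount of 0.1 or a filter at a mean of 1, 1 with the replicate block, and 2 higher and 187 lower in P with voom.

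Deviations of same-numbered libraries correlated at 0.139, 0.0518, 0.251 and 0.155 over 11374 genes, beside −0.135 to 0.136 for libraries of different numbers. The paper pooled NP and P fractions from the same profiles, but no source states that a number marks one gradient. The numbers were therefore not taken as pairs, and the main tests leave any pairing of the libraries unused. With the replicate number as a block, 0 members and 0 list genes were called, and Tubgcp2 had an adjusted p of 0.315 in limma. Tubgcp3 rests on 3 recovered reads or fewer in 5 of 8 libraries, which limits its fold change (−1.79 with a pseudocount of 0.1, −2.63 with voom).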
